A study of Mus musculus with 15 samples.

Results

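The heat shock chaperones described here are 10 genes: the HSP90 proteins Hsp90aa1 and Hsp90ab1, the HSP70 proteins Hspa1a, Hspa1b and Hspa8, the HSP110 protein Hsph1, the J proteins Dnaja1 and Dnajb1, and the mitochondrial chaperonin genes Hspd1 and Hspe1. They were taken by gene symbol from 28167 RefSeq transcripts with read counts, of which 27836 could be given 1 of 20097 mouse symbols. The 10 genes had 12 transcripts, since Dnaja1 had 3, and all 12 reached the minimum of 10 counts on average, as did 17299 transcripts in all. For each gene the transcript with the highest mean count is described. The livers came from wild-type male C57BL/6N mice aged 8 to 10 weeks, entrained to a cycle of 12 h of light and 12 h of darkness and then kept for 24 h in constant darkness. Livers were taken every 4 h from CT0 to CT24, from 2 mice at each of the 7 times, where CT is circadian time in hours and CT12 to CT24 is the subjective night. Ribosome profiling sequences the mRNA fragments that ribosomes protect from RNase, so a count here is a count of footprints and reflects both how much mRNA there was and how many ribosomes it carried, which cannot be told apart in these libraries. In whole liver, fewer cells of a type and less RNA per cell cannot be told apart either.

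Chaperones bind unfolded or partly folded proteins and help them to fold. HSP70 proteins take clients from J proteins, which stimulate their ATPase, and HSP110 proteins are their nucleotide exchange factors. HSP90 proteins act later on clients such as steroid receptors, and HSP60 with its lid HSP10 folds proteins in the mitochondrial matrix. When cells are warmed, the factor HSF1 binds heat shock elements, which are inverted repeats of the triplet GAA, and raises transcription of many of these genes. Mice are active at night and their core temperature is then higher, which is why a daily rhythm could be looked for. No temperature was recorded in the files, and its part in any result was not tested.

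Promoter sequences from RefSeq (GRCm38.p6, 250 bases before to 50 after the annotated start) were given for 7 of the 10 genes and were searched for heat shock elements. The motifs were GAANNTTC and TTCNNGAA with 2 triplets, the same alternation continued to 3 triplets from either start, and the one of 4 triplets that begins with TTC. Both strands were covered, and a longer match also contains the shorter ones. The sites are shown because HSF1 binds such elements, and the capitals mark the match.
Hspd1 (chr1:55088053-55088082, minus strand): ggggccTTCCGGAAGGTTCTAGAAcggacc
Hspe1 (the same bases, plus strand): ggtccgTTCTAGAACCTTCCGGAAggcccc
Hsph1 (chr5:149636280-149636308, minus strand): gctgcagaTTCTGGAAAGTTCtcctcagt
Hsph1, further element (chr5:149636351-149636380, minus strand): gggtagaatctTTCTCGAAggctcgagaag
Dnaja1 (chr4:40722333-40722362, plus strand): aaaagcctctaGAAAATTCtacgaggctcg
Hspa1a (chr17:34972242-34972271, minus strand): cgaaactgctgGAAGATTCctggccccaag
Hspa1b (chr17:34959324-34959353, minus strand): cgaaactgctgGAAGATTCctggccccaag

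Hspd1 and Hspe1 lie head to head on chromosome 1, and the 4-triplet element between them is 1 site read from both sides. Such an element was present in 5 of 32851 promoters of the table, which is 0.0152%. The 3-triplet motifs occurred in 0.603% of promoters and the 2-triplet motifs in 15.1%. At least 1 motif was found in 6 of the 7 genes, and a motif of 3 or more triplets in 3 of them. Counted by promoter, as the shares of the table are, these were 7 of 12 promoters (58.3%) and 4 of 12 (33.3%), some of which overlap. The elements of Hspa1a and Hspa1b, a tandem pair on chromosome 17, were identical with their flanking bases. The 3-triplet element of Hsph1 lies after the annotated start, and its 2-triplet element before it. In the window of Dnajb1 none of these letter strings was present. A match is a description of the sequence, and no binding was measured. The other genes lie at chr9:40801276-40805202 on the plus strand (Hspa8), chr12:110691036-110696395 on the minus strand (Hsp90aa1), chr17:45567778-45573261 on the minus strand (Hsp90ab1) and chr8:83608175-83612653 on the plus strand (Dnajb1).

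Most of the chaperones had more footprints in the subjective night than in the day. A cosine of 24 h was fitted to each transcript with edgeR (quasi-likelihood F test, TMM normalization, Benjamini-Hochberg over all transcripts), and 7 of the 10 genes passed the threshold of 0.05, against 11.3% of all transcripts tested (1947 of 17299). Their fitted peaks lay between CT15.0 for Dnaja1 and CT19.1 for Hsp90aa1, and 2.68% of all transcripts were called with a peak from CT15 to CT20 and 6.67% with one from CT12 to CT24. The rank test JTK_CYCLE called 6 of the 10 genes on TMM-scaled values, where it called 16.7% of all transcripts, and 5 on values scaled by total counts, where it called 17.6%. These P are not adjusted over transcripts, and with a q over all transcripts 3 members and 3.45% of all transcripts were called. Hspa8 was not called by either (JTK_CYCLE, exact null, P = 0.0577 with TMM). The fitted differences between peak and trough of the 7 ran from 0.69 on the log2 scale for Hspe1 to 2.19 for Hspa8. The 3 genes that did not pass were Dnajb1 (adjusted p = 0.0536), Hspa1b (adjusted p = 0.0587) and Hspa1a (adjusted p = 0.385). Levels below are CPM, counts relative to the library size scaled by TMM, and both mice of a time point are given in the order of their replicate numbers, which pair no animals.

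**Figure D1:**
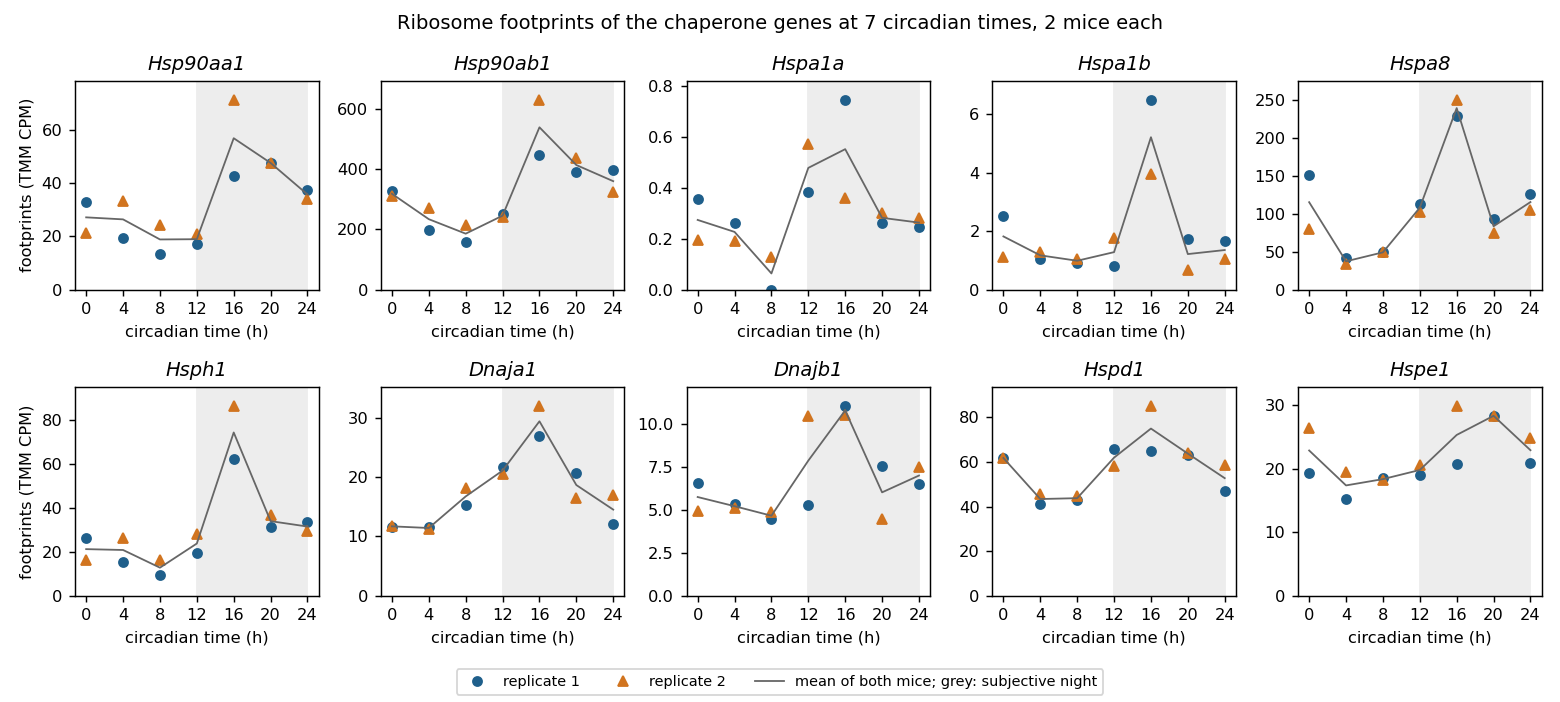
Footprints of the 10 chaperone genes in CPM (vertical axis, linear, from 0) against circadian time in hours, with 1 point per library, a line through the mean of both mice and the subjective night in grey. For 9 of the 10 genes, and for 14.4% of all transcripts, the mean was highest at CT16, where Hspa8 reached 228 and 249.8 CPM.

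Hspa8, the constitutive cytosolic HSP70, had the largest fitted rhythm of the 7. It stood at 150.5 and 79.7 CPM at CT0, 41.4 and 33.0 at CT4, 49.1 and 48.9 at CT8, 113 and 103 at CT12, 228 and 249.8 at CT16, 92.7 and 74.0 at CT20, and 126 and 104 at CT24. Both CT16 mice were above every other library, all CT4 and CT8 mice were below every other library, and between CT16 and CT20 the level dropped below that of CT24. The mean at CT16 was 239 ± 15.1 CPM (SD, n = 2) and the lowest mean, at CT4, was 37.2 ± 5.90 CPM (SD, n = 2), a ratio of 6.43. In the cosine fit the peak was at CT17.7 ± 0.81 h (SE) and the adjusted p was 0.00287 in edgeR. Without the CT16 libraries the fitted log2 difference was 1.58 in place of 2.19, and the call was lost (adjusted p = 0.120).

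Hsph1, the HSP110 exchange factor of HSP70, followed a similar course at a lower level. Its values were 26.0 and 16.3 CPM at CT0, 15.2 and 26.4 at CT4, 9.19 and 16.3 at CT8, 19.6 and 27.9 at CT12, 62.3 and 86.3 at CT16, 31.4 and 36.5 at CT20, and 33.5 and 29.4 at CT24. The CT16 mice again stood above every other library, while the CT4 mice overlapped those of CT0, CT8 and CT12, and the CT8 mice lay below those of CT0 and CT12. Its fitted difference was 1.94 on the log2 scale (3.84-fold), with a peak at CT17.8 ± 0.79 h (SE) and an adjusted p of 0.00311 in edgeR. Without the CT16 libraries it was 1.18 and was not called (adjusted p = 0.0536). Hsph1 and Dnajb1 were the members whose coding sequence had no stretch of 28 bases in common with another place in the genome.

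The inducible HSP70 pair had few counts, which the shared stretches described with the levels below may have lowered. Hspa1b had 41 to 401 counts per library, and stood at 2.53 and 1.11 CPM at CT0, 1.05 and 1.29 at CT4, 0.913 and 1.06 at CT8, 0.790 and 1.77 at CT12, 6.49 and 3.94 at CT16, 1.74 and 0.685 at CT20, and 1.65 and 1.06 at CT24. Only the CT16 mice rose clear of the rest, and the other 12 libraries overlapped across the day. This narrow shape did not pass as a cosine, but in an F test of any difference among the 7 time points the adjusted p of Hspa1b was 0.0155, where 7.08% of all transcripts were called. That test called 7 of the 10 members as well, with Hspa1b in the place of Hspe1, whose adjusted p there was 0.208. Its call of Hspa1b was lost without CT16 replicate 1 (adjusted p = 0.329), that of Hspd1 in 8 of the 14 fits with 1 library left out, and 6 to 9 members were called over its alternatives. Hspa1a had 0 to 46 counts per library and between 0 and 0.745 CPM, with the highest value at CT16 and 0 counts in 1 CT8 library, which allows a level of up to 0.0375 CPM. Its night and day libraries overlapped, and no change was detectable at this depth, except that the night call below was made without CT8 replicate 2 (adjusted p = 0.0490, edgeR).

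The HSP90 genes were high at both CT16 and CT20. Hsp90ab1, the constitutive form, had the most counts of the members, at 327 and 310.3 CPM at CT0, 197 and 271 at CT4, 158 and 214 at CT8, 251 and 240.0 at CT12, 449 and 630.4 at CT16, 392 and 436 at CT20, and 396 and 325 at CT24. Hsp90aa1, the form that stress induces more strongly, stood at 33.0 and 21.3 CPM at CT0, 19.3 and 33.4 at CT4, 13.5 and 24.1 at CT8, 17.04 and 20.8 at CT12, 42.5 and 71.2 at CT16, 47.5 and 47.6 at CT20, and 37.5 and 33.9 at CT24. For both genes the CT16 and CT20 mice were above all mice of CT4 and CT8, and the CT12 mice of both genes were still within the range of the day. The fitted difference was 1.42 on the log2 scale for Hsp90ab1 (adjusted p = 0.000193, edgeR) and 1.49 for Hsp90aa1 (adjusted p = 0.00733, edgeR). Their peaks lay at CT18.8 ± 0.52 h and CT19.1 ± 0.84 h (SE), closer together than these errors.

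Among the J proteins, Dnaja1 had the earliest fitted peak of the 10 genes. It stood at 11.7 and 11.7 CPM at CT0, 11.6 and 11.2 at CT4, 15.2 and 18.2 at CT8, 21.7 and 20.5 at CT12, 26.8 and 31.9 at CT16, 20.7 and 16.5 at CT20, and 12.0 and 16.96 at CT24. The level climbed from CT4 through CT8 and CT12 to CT16 with no overlap between these 4 time points. The fitted peak was at CT15.0 ± 0.49 h (SE), the fitted difference 1.23 on the log2 scale and the adjusted p 7.9e-05 in edgeR. The remaining Dnaja1 transcripts had identical counts to each other and gave a peak at CT15.1 and 1.40 on the log2 scale, but they share their coding sequence with the one described and are no independent measurement.

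Dnajb1, the J protein that partners HSP70 in the heat shock response, stood at 6.56 and 4.90 CPM at CT0, 5.30 and 5.10 at CT4, 4.44 and 4.85 at CT8, 5.28 and 10.4 at CT12, 11.01 and 10.5 at CT16, 7.53 and 4.48 at CT20, and 6.48 and 7.48 at CT24. The CT16 mice were highest, but CT12 replicate 2 came close to them and CT20 replicate 2 was among the lowest libraries. Its fitted difference was 0.92 on the log2 scale. The gene passed the threshold when CT12 replicate 1 (adjusted p = 0.0314, edgeR), CT20 replicate 2 (adjusted p = 0.00723) or CT24 replicate 2 (adjusted p = 0.0425) was left out. Hspa1b passed without CT0 replicate 1, CT12 replicate 1, CT20 replicate 1 or CT20 replicate 2, with adjusted p from 0.00903 to 0.0485.

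The mitochondrial pair had the smallest fitted differences of the 10 genes. Hspd1, the HSP60 subunit, stood at 61.7 and 61.9 CPM at CT0, 41.0 and 45.8 at CT4, 42.9 and 44.6 at CT8, 65.7 and 58.2 at CT12, 64.9 and 85.1 at CT16, 63.3 and 64.2 at CT20, and 46.9 and 58.6 at CT24. Hspe1, the HSP10 lid, ranged from 15.2 CPM in a CT4 mouse to 29.9 CPM in a CT16 mouse, with 28.4 and 28.3 CPM at CT20. Hspd1 was low at CT4 and CT8 and on a plateau from CT12 to CT20, whereas Hspe1 alone of the 10 genes had its highest mean at CT20. The fitted differences were 0.78 on the log2 scale for Hspd1 (adjusted p = 0.00368, edgeR) and 0.69 for Hspe1 (adjusted p = 0.0152, edgeR), with peaks at CT17.4 ± 0.58 h and CT18.9 ± 0.75 h (SE).

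**Figure D2:**
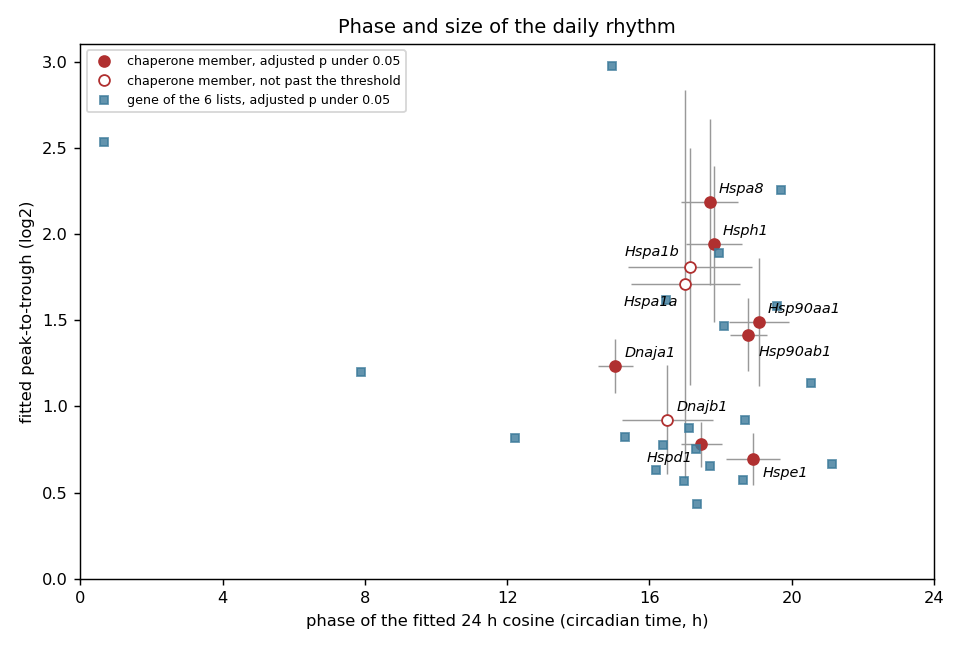
Phase of the fitted 24 h cosine in hours of circadian time (horizontal axis) against the fitted log2 difference between peak and trough (vertical axis), for the chaperone genes (circles, bars give the SE of a least-squares fit, open where the edgeR adjusted p was not under 0.05) and for the called genes of 6 lists of related genes (squares). All 10 members lie between CT15.0 and CT19.1.

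The mean of CT16 and CT20 was compared with the mean of CT4 and CT8 in an edgeR fit with 1 mean per time point, to ask for the direction of the difference. The same 7 genes were higher at night and none was lower, while 3.06% of all transcripts were called higher and 1.37% lower. The increase was 3.31-fold for Hspa8 (log2 1.73, adjusted p = 1.3e-05), 3.09-fold for Hsph1 (log2 1.63, adjusted p = 0.000244), 2.34-fold for Hsp90aa1 and 2.27-fold for Hsp90ab1. Dnaja1 rose 1.69-fold, Hspd1 1.59-fold and Hspe1 1.50-fold. With CT12 counted as night and CT0 as day the log2 differences were lower, at 0.64 for Hsp90aa1, 0.66 for Hsp90ab1, 1.12 for Hspa8, 1.14 for Hsph1 and 0.45 for Hspd1, all still called, while Dnaja1 was at 0.79. The median over the 10 members was 1.20 on the log2 scale, against -0.01 over all transcripts. With libraries scaled by their total count the median of all transcripts was 0.15 and that of the members 1.37. Under that scaling 9 genes were called higher, beside 455 transcripts called higher and 41 lower of 17299. For 6 genes all 4 night libraries were above all 4 day libraries, as for 4.84% of all transcripts, while 4.4% had all night libraries below the day, and Dnaja1 was not among them because CT20 replicate 2 (16.5 CPM) lay below CT8 replicate 2 (18.2 CPM). The call of Hspe1 was lost without CT4 replicate 1, CT8 replicate 1, CT8 replicate 2, CT16 replicate 2 or CT20 replicate 1 (adjusted p from 0.0626 to 0.150), and with CT12 counted as night and CT0 as day (adjusted p = 0.147).

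The summed level of the 10 genes ran from 312 CPM in a CT8 mouse to 1199 CPM in a CT16 mouse. The CT4 and CT8 mice lay between 312 and 447 CPM, the CT20 mice at 685 and 709 CPM, and the CT16 mice at 913 and 1199 CPM. The sum is dominated by Hsp90ab1 and Hspa8.

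The height of the CT16 values above both neighbouring times was also read. CT16 was compared with the mean of its neighbours CT12 and CT20, a comparison chosen after the values were seen. Hspa8 was the 1 transcript called higher at CT16 (0.00578% of 17299), with 2.52-fold more footprints (adjusted p = 0.0415, edgeR), and no transcript was called lower, while 1293 had an unadjusted p under 0.05 (7.47%). That call was lost in 10 of the 14 fits with 1 library left out, in which the difference of Hspa8 stayed between 1.25 and 1.42 on the log2 scale and its adjusted p reached 0.138. Libraries of CT4, CT8, CT12, CT16, CT20 and CT24 were among those whose removal ended it. Hspa1b was 4.23-fold higher (adjusted p = 0.105), Hsph1 2.62-fold (adjusted p = 0.0636), and Hsp90ab1 1.69-fold (adjusted p = 0.126). Hspd1 was at 1.19-fold (adjusted p = 0.754) and Hspe1 at 1.07-fold (adjusted p = 0.958) of the mean of these neighbours. For Hspe1 the CT16 mean lay between them, since its CT20 mice (28.4 and 28.3 CPM) were above its CT12 mice (19.1 and 20.6 CPM). Both CT16 libraries were above all 4 neighbouring ones for 6 of the 10 members and for 6.51% of all transcripts. Terms of a 12 h period added to the cosine, also chosen after the values were seen, were called for none of the members and 0.202% of all transcripts, while 5 members and 7.28% of all transcripts had an unadjusted p under 0.05 (edgeR).

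**Figure D3:**
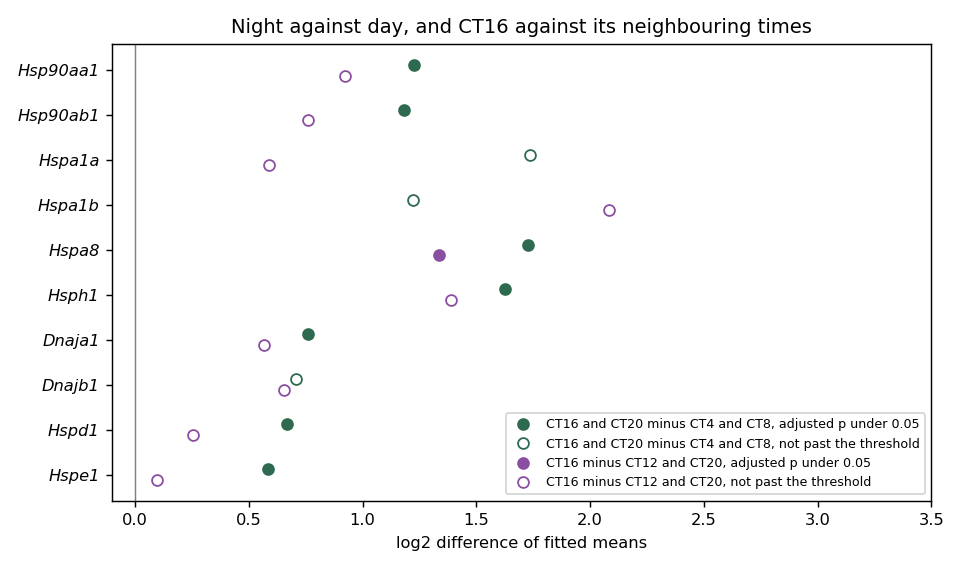
Log2 differences of fitted means (horizontal axis) for each chaperone gene, CT16 and CT20 minus CT4 and CT8 in green and CT16 minus CT12 and CT20 in purple, filled where the edgeR adjusted p was under 0.05. All points lie above 0, and the mitochondrial genes Hspd1 and Hspe1 have the smallest CT16 step.

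Both mice of CT0 and CT24 were at the same circadian time a day apart, under different collection dates. With 2 mice per time point, no transcript was called different between these time points (0% called, edgeR). For the members the difference of CT24 minus CT0 ranged from -0.43 on the log2 scale for Hspa1b to 0.57 for Hsph1, and none of the 10 transcripts described had an unadjusted p under 0.05, as 5.05% of all transcripts did (873). The remaining Dnaja1 transcripts had 0.51 on the log2 scale (unadjusted p = 0.0297, edgeR). DESeq2 called 2 transcripts in this comparison, and edgeR called 6 with a replicate block and 1 with total-count scaling.

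Other chaperone and cochaperone genes were read from 6 lists. The shares to set beside their counts are the 11.3% of all transcripts with a rhythm and the 3.06% higher at night, and the 1 of 8 genes of the mitochondrial list is near the first of these. Of 17 cochaperones of HSP90 and HSP70 tested, 6 were rhythmic (2 without the CT16 libraries), all with a peak between CT14.9 and CT20.5. By the comparison of night with day 6 were higher and none lower: 5 of the rhythmic ones and Bag3, while St13 was rhythmic but not called there (adjusted p = 0.0533, edgeR). The 4 with the lowest adjusted p were Fkbp5, an HSP90 cochaperone of steroid receptors, Fkbp4, its relative, Ahsa2, an activator of the HSP90 ATPase, and Chordc1, an HSP90 binding protein. Fkbp5 rose from a mean of 2.52 CPM at CT4 to 19.3 CPM at CT16, a fitted 7.86-fold (adjusted p = 1.0e-05, edgeR). Fkbp4 ran from 39.7 CPM at CT8 to 79.6 CPM at CT20, with its peak at CT20.5 ± 0.38 h (SE). Ahsa2 and Chordc1 changed 1.68-fold and 1.84-fold, with peaks at CT17.3 and CT17.1.

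Of 8 heat shock factors and small heat shock proteins, 2 were rhythmic. Hspb1, the small heat shock protein HSP27, ran from 2.06 CPM at CT12 to 11.1 CPM at CT20 (adjusted p = 0.000910, edgeR), so its lowest mean fell at CT12, when Hspa8 and Dnaja1 had already risen. Hspb8 changed 1.48-fold (adjusted p = 0.0454), a call that was lost in 20 of 33 alternatives, among them total-count scaling and 12 of the 14 fits with 1 library left out. Hsf1, which encodes the factor that binds heat shock elements, had a low level of 2.11 CPM at CT12 to 3.47 CPM at CT0 and did not pass (adjusted p = 0.430).

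Of 17 other cytosolic HSP70, HSP110 and J protein genes tested, 5 were rhythmic. The 4 with the lowest adjusted p were Hspa4l, an HSP110 relative of Hsph1 (2.99-fold, peak at CT19.6), and the J proteins Dnajb4 (1.77-fold, CT15.3), Dnajb2 (1.59-fold, CT21.1) and Dnajb6 (1.76-fold, CT12.2). With total-count scaling 2 genes of this list were called, and the call of Dnajb6 was lost in 14 of 33 alternatives. The peaks of Dnajb4 and Dnaja1 lay at CT15.3 ± 0.68 h and CT15.0 ± 0.49 h (SE), after that of Dnajb6 and before that of Dnajb2. In the chaperonin and prefoldin list 4 of 14 genes passed, all subunits of the cytosolic chaperonin TRiC: Tcp1, Cct4, Cct2 and Cct5, with 1.71-fold to 1.49-fold changes and peaks between CT16.2 and CT18.6. All 4 were also higher at night. With total-count scaling, and by the F test of any difference, 1 gene of this list was called.

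In the list of other mitochondrial chaperones and proteases, of 8 genes tested, only Clpx, the unfoldase of the matrix protease ClpXP, was rhythmic, and it peaked at CT0.7 with a 5.78-fold change (adjusted p = 4.2e-07, edgeR). Hspa9, the mitochondrial HSP70 that works with Hspd1 and Hspe1, changed 1.17-fold and did not pass (adjusted p = 0.416). The median difference between night and day was 0.03 on the log2 scale in this list, 0.37 among the cochaperones, 0.25 in the chaperonin list, 0.30 in the HSP70 and J protein list and 0.09 among heat shock factors and small heat shock proteins. Higher at night were none of the mitochondrial list, 2 of 17 HSP70 and J protein genes and 1 of 8 heat shock factors and small heat shock proteins.

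The genes whose pattern was most like that of 7 cytosolic members, a list set by hand that holds the constitutive Hspa8 and leaves out Hsp90ab1 (the mean z score of Hsp90aa1, Hspa1a, Hspa1b, Hspa8, Hsph1, Dnaja1 and Dnajb1 over 14 libraries) were ranked by Pearson r among 8136 genes averaging 100 counts or more. In order they were Vps37b (r = 0.925), Chordc1 (r = 0.915), Cct2 (r = 0.912), Ywhag, Acot11, Srm, Creld2, Ncaph2, Atxn2l and Rrp12 (r = 0.851). Chordc1 and Cct2 also belong to the chaperone lists above. These r share the libraries and their depth with the members and are a description.

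Immediate early genes, which respond within minutes to stress and handling, were read beside the chaperones. Of 7 tested, Dusp1 (3.70-fold, peak at CT18.0) and Jun (2.77-fold, peak at CT18.1) rose at night with the chaperones, and Junb was higher by day (peak at CT7.9), while Egr1 did not pass (adjusted p = 0.351, edgeR). The rhythm call of Jun was lost in 9 of 33 alternatives and that of Junb in 6, among them the omission of either CT8 library. That of Dusp1 was kept in all 33. The part of the immediate early genes in the chaperone results was not tested.

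Levels per length were compared as TMM-scaled footprints in the coding sequence (CDS) per kilobase and library size (RPKM). Hsp90ab1 led with 145 ± 55.5 RPKM (SD, n = 14), followed by Hspe1 with 66.6 ± 14.2, Hspa8 with 48.6 ± 29.9 and Hspd1 with 30.4 ± 6.84. Hsp90aa1, Dnaja1 and Hsph1 came next at 14.7 ± 6.98, 12.4 ± 4.99 and 11.4 ± 7.68 RPKM. Each SD includes the change over the day, and the differences between these genes were not tested. The order turned with time for Hspa8 and Hspe1: at CT16 Hspa8 had 109 RPKM and Hspe1 76.0, and at CT4 17.2 and 52.7, in both cases without overlap of the mice. Dnajb1 had 6.48 ± 2.28, Hspa1b 0.623 ± 0.495 and Hspa1a 0.0616 ± 0.0592 RPKM. Neighbours in this order overlapped in range over the libraries, except between Dnajb1 and Hspa1b.

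These levels are uncertain for most members, since many of the genes have processed pseudogenes or near-identical copies. Of the 28-base stretches of the CDS, 95.6% in Dnaja1, 95.5% in Hspa8, 92.9% in Hsp90aa1, 91.9% in Hspa1a, 89.4% in Hspa1b, 87.2% in Hspe1, 82.5% in Hspd1 and 26.7% in Hsp90ab1 also occurred elsewhere in GRCm38.p6, against 0% in Hsph1 and Dnajb1. The study's methods built its transcript profiles from reads that aligned to 1 place, and do not say separately whether the count files rest on the same reads. Under that rule a footprint within a shared stretch would be missing from the counts, and the level of such a gene would be too low. The order would then be another: per unshared stretch of the CDS, over all libraries, Hspa8 had 893 footprints, Hspe1 477, Dnaja1 243, Hsp90aa1 168, Hsp90ab1 163 and Hspd1 148. Hsph1 had 9.25, Dnajb1 5.48, Hspa1b 4.95 and Hspa1a 0.601 by this measure, so that Hspa8 in place of Hsp90ab1 came first and Hspa1b came close to Dnajb1. Which order holds was not tested.

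Footprints in the 5′UTR made up the highest shares in the inducible HSP70 pair. Over all libraries Hspa1a had 161 footprints upstream of the start codon and 92 in the CDS, so that 63.6% lay in the 5′UTR, and Hspa1b had 509 and 999, or 33.6%. In single libraries, out of 5′UTR and CDS footprints, the share ran from 0% to 100% in Hspa1a and 0% to 65.8% in Hspa1b. These ranges overlap that of Dnaja1, 6.43% to 29.3%. The median share over 16838 transcripts was 3.83%, and the other members ran from 1.16% in Dnajb1 to 15.3% in Dnaja1 (1.33% for its remaining transcripts, whose 5′UTR differs), with 11.03% in Hspa8 and 8.39% in Hspd1. Per base, the 5′UTR of Hspa8 held 2.95 times the footprints of its CDS and that of Hspe1 0.0254 times, against a median of 0.346. Shared stretches were less frequent in the 5′UTR than in the CDS, at 15.7% against 95.5% in Hspa8, 0% against 82.5% in Hspd1, and 73.0% in the 5′UTR of Hspa1a and Hspa1b. If the counts hold no reads of shared stretches, these shares are too high: per unshared stretch the ratio of 5′UTR to CDS was 0.251 for Hspa8 in place of 2.95, 0.122 for Dnaja1 in place of 1.23, 0.210 for Hspd1 in place of 1.01 and 0.0034 for Hspe1, and 4.87 for Hspa1a and 1.87 for Hspa1b. In raw counts the 160 and 84 footprints of the Hspa1b 5′UTR at CT16 were its highest. Beside them were 240 and 114 in the CDS, where CT0 replicate 1 had 130. The 84 and 114 are from CT16 replicate 2, whose counts may be doubled, as described below.

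**Figure D4:**
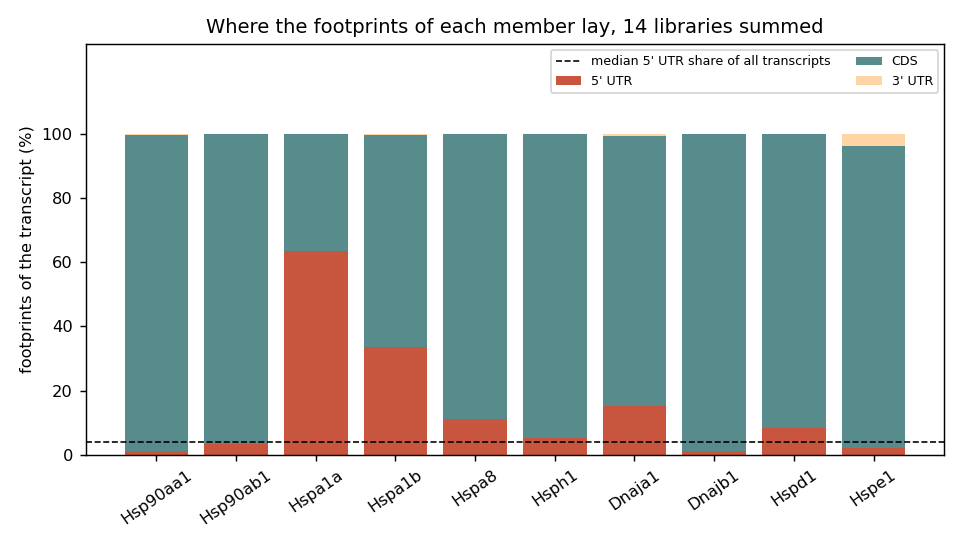
Share of footprints by region, 5′UTR, CDS or 3′UTR (stacked, in percent of the footprints of the transcript, 14 libraries summed) for each chaperone gene, with the median 5′UTR share of all transcripts as a dashed line at 3.83%. Hspa1a and Hspa1b have 63.6% and 33.6% in the 5′UTR.

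The distribution of footprints between 5′UTR and CDS was not found to change over the day. The log2 ratio of both regions was fitted with a 24 h cosine in limma for the 8 members that averaged 10 counts or more in both, and none passed, as none of the 7640 transcripts tested did (0% called, 377 with an unadjusted p under 0.05, or 4.93%). Adjusted p-values of these members were 0.809 or higher.

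Some facts of the libraries touch these results. Total counts ran from 40593197 to 90458783. Major urinary protein (Mup) transcripts held 34.2% of counts in CT0 replicate 1 and 57.6% in CT12 replicate 2, the extremes. The TMM factors of these libraries were 1.46 and 0.736. With the letters that open the library descriptions as a block, the fitted log2 difference was 1.90 for Hspa8, 1.74 for Hsph1 and 1.14 for Hspa1b. The hepatocyte markers were high in every library (36006 to 50203 CPM summed over 7 genes), and those of Kupffer cells, endothelium, stellate cells, cholangiocytes and erythroid cells were at or below 144 CPM. Of the hepatocyte markers 2 were higher at night, and the summed stellate cell markers were 96.6 to 119.5 CPM in the night libraries and 124 to 143 CPM in the day libraries, without overlap. Both CT16 libraries had the lowest sums of all 14 for stellate cells (109 and 96.6 CPM), endothelium (100.9 and 86.3 CPM) and cholangiocytes (11.3 and 11.03 CPM), and CT16 replicate 1 the lowest for Kupffer cells (60.5 CPM). Their part in the chaperone results was not tested. In CT20 replicate 2, a night library, 6 pancreatic acinar markers summed to 2494 CPM, against 0.119 to 48.1 CPM in the other libraries. They were at 0.130 and 0.119 CPM in the CT16 libraries, and the part of pancreatic tissue in the chaperone results was not tested. Without CT20 replicate 2, 9 of the 10 members passed the cosine test, as did 5 of the cochaperones and 5 of the chaperonin genes. Of all transcripts, 1848 of 17247 passed in that fit. In CT16 replicate 2 all nonzero counts were even numbers. The labels give this replicate a pair of library entries with 1 shared file, and whether its counts are doubled was not tested, so its raw counts, such as those of the Hspa1b 5′UTR, may be too high, while its CPM would change little. With its counts halved 7 members and 1942 of 17262 transcripts were called. With both CT16 libraries left out 5 members and 1481 of 17329 transcripts passed. The titles carry a collection date that changes between CT12 and CT16, so all CT16 and CT20 libraries bear one date and all CT4 and CT8 libraries the other, and date and time of day cannot be told apart in that comparison.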

How the data were processed

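Ribosome footprints of 14 mouse liver libraries, 2 per time point, were analysed. The authors removed rRNA reads, aligned the rest to mm10 (Bowtie2 2.1.0.0, SAMtools 0.1.19.0 in the submitters' processing notes), gave each read of 26 to 32 nt an A-site position and deposited raw counts per 5′UTR, CDS and 3′UTR of each RefSeq transcript, without normalization. The methods name reads aligned to 1 place for transcript profiles, and do not say so separately for the count files. The last pair of livers is titled CT24 but has CT00 as its time, and was taken as CT24. CT16 replicate 2 has a pair of library entries and 1 file.

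The 3 regions were summed. Transcripts averaging 10 counts or more were tested with edgeR 4.0.16 (R 4.3.3) and, for ratios with a pseudocount of 0.5, limma 3.58.1. DESeq2 1.42.0 and JTK_CYCLE were alternatives. JTK_CYCLE was written anew in Python 3.11.15 with equal cosine values sharing a rank. Several treatments of ties were tried, and the one kept does not give the original program's P. Fits were tested on simulated data. Members and lists were chosen with earlier results of these data known, and up to 4 genes per list were named by lowest adjusted p. Genes of the lists absent from the tables (Dnajb5, Grpel1, Grpel2, Hba-a1) were not analysed here. The replicate numbers pair no samples: the deviations of same-numbered libraries correlated by -0.06 to 0.16, with 3 of 21 pairs over 0.1. The labels give a collection date, which differs between CT0 to CT12 and CT16 to CT24, and no day of library preparation. Figures were drawn with matplotlib.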

Additional observations from a re-analysis of the deposited data

How the results depend on the processing

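The 7 rhythmic members were called under each other scaling, count minimum, region and block tried in edgeR, except that 2 of them were lost without CT16, and 5 to 9 members passed in these fits. JTK_CYCLE called 6 members with TMM and 5 with total scaling (percent of all transcripts 16.7 and 17.6), without Hspa8 in both, and 3 with q across transcripts. The DESeq2 likelihood ratio test called 9 members and 2539 of 17299 transcripts. With 1 library left out, 7 to 9 members were rhythmic and 6 to 9 higher at night. The replicate block left 7 members in both tests, with 1916 and 798 of 17299 transcripts called, and 6 transcripts in CT24 minus CT0. Over all transcripts the rhythmic count was 1251 with 1 transcript per gene (fewer tested), 1225 by the F test of any difference, 3051 by JTK_CYCLE on total counts and 597 with q, and 1499 to 2062 with 1 library left out. Night against day gave 496 with total scaling (91.7% of calls higher, against 69.1%), 1159 with the DESeq2 Wald test and 418 to 982 with 1 library left out. CT24 minus CT0 gave 1 with total scaling, 2 with DESeq2, 1 with a count minimum of 1 and 0 to 2 with 1 library left out. The comparison of CT16 with its neighbours gave 0 to 87 and the 12 h terms 23 to 50 with 1 library left out. The ratio test gave 0 under all its 19 alternatives. With 1 library left out the rhythmic genes of the lists were 4 to 6 cochaperones, 1 to 2 heat shock factors and small heat shock proteins, 2 to 5 other HSP70 and J proteins, 1 mitochondrial, 3 to 5 chaperonin and 1 to 3 immediate early genes. Over the other alternatives they were, in this order, 2 to 7, 1 to 2, 1 to 6, 1 to 2, 1 to 5 and 1 to 3. The sign of CT16 minus its neighbours turned with 1 library left out for Hspa1a (lowest log2 difference -0.03) and Hspe1 (-0.19), neither of which was called. The cause of these changes was not tested.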

Other observations

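Both comparisons here were made after the values were seen. The CT24 mice were above the CT20 mice for Hspa8, while its CT0 mice overlapped those of CT20. Terms of a 12 h period were therefore added to the 24 h cosine and tested in edgeR. None of the 10 chaperone genes was called, against 35 of 17299 transcripts (0.202%), and 5 members had an unadjusted p under 0.05, as did 7.28% of all transcripts. The lowest adjusted p of a member was 0.214, for Hsph1, and that of Hspa8 was 0.384.

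Ratios between members within a library do not depend on how libraries are scaled. They were taken for 6 pairs as the log2 ratio of CDS counts, and a 24 h cosine was tested by permutation of the libraries (100000 shuffles, adjusted over the 6 pairs). None passed. Their sizes may rest on how many stretches of each CDS are shared: per unshared stretch Hsp90aa1 and Hsp90ab1 had 168 and 163 footprints, and Hsph1 and Hspa8 had 9.25 and 893. The Hsp90aa1 to Hsp90ab1 ratio had a median of -3.28 on the log2 scale and stayed between -3.86 and -2.99 (permutation p = 0.674, adjusted 0.809). The Hspa8 to Hspd1 ratio had a mean of -0.05 by day and 1.00 at night (permutation p = 0.0595, adjusted 0.224). The Hspa1b to Hspa8 ratio had a mean of -5.65 by day and -6.69 at night (permutation p = 0.130, adjusted 0.224). For Hsph1 to Hspa8 the night and day means were -1.40 and -1.40 (permutation p = 0.855).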
